A study of Mus musculus with 23 samples.

Results

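Linoleic acid (LA) was compared with its carrier, bovine serum albumin (BSA), in mouse retinal organoids at day 32 of culture in medium without FGF1. The comparison uses 6 of the 23 libraries of the series, 3 LA and 3 BSA, taken by their labels. The organoids were grown from a wild-type Nrl-GFP induced pluripotent stem cell line, a single clone reprogrammed from fibroblasts of E14.5 embryos, in which GFP marks rods through the promoter of the rod factor Nrl. The LA libraries come from organoids given 26 µM LA bound to BSA from day 10, and the BSA libraries from organoids given BSA alone. From day 26 the medium of both groups also held non-essential amino acids, B27 without vitamin A and 2% fetal bovine serum, and neither group received FGF1. Neural retina was dissected from 12 organoids per sample, and directional poly(A) libraries were made from 100 ng of RNA. The labels call the libraries biological replicates without tying them to separate cultures, so the p-values measure the spread between these libraries. The 3 libraries of docosahexaenoic acid (DHA, 26 µM, same days and medium) entered the same fit and share its estimate of the spread.

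Linoleic acid is an essential polyunsaturated fatty acid that cells lengthen and desaturate, through the enzymes Fads2, Elovl5 and Fads1, to arachidonic acid. Polyunsaturated fatty acids activate the PPAR receptors, which switch on fatty acid oxidation genes, and restrain SREBP1, which drives fatty acid synthesis. The retina is rich in such acids, above all in the outer segment membranes of photoreceptors, where DHA is the most abundant.

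The 6 libraries held 10405663 to 11888224 estimated reads each. In the replicate 1 library of each of the 3 media, which is absent from the authors' normalized table, Eif2s3y stood at 46.4 to 62.9 CPM (reads scaled to a common library total), against 0.101 to 0.570 CPM in the 6 replicate 2 and 3 libraries. Rps3a2 likewise stood at 108 to 198 CPM in the replicate 1 libraries, against 0 to 0.398 CPM in the others. These libraries therefore stand apart although the labels give all samples the same clone, and the fit carries left-out against kept as a term. That term had 46 genes at a Benjamini-Hochberg adjusted p under 0.05, 45 higher (0.265% of genes) and 1 lower (0.00588%) in the left-out libraries. Each medium has 1 left-out and 2 kept libraries, so the term is balanced between LA and BSA.

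No gene passed the test between LA and BSA. With edgeR's quasi-likelihood test, 0 of 17006 genes (0.00% in each direction) had an adjusted p under 0.05, and the smallest adjusted p was 0.9998. At an unadjusted p under 0.05 there were 172 genes (1.01%), 79 higher in LA (0.465%) and 93 lower (0.547%). A threshold of 0.05 would by itself pass a larger share if no gene differed, so this is no excess. DESeq2 and limma voom also called 0 genes. Of the same 17006 genes, 219 and 4021 had an unadjusted p under 0.05 there. At that threshold voom thus differed widely from edgeR and DESeq2, and the reason was not tested. All 3 LA libraries lay above all 3 BSA libraries in 582 genes (3.42%) and below them in 501 (2.95%). Over the 20 arrangements of 3 libraries against 3, separation in either direction has a probability of 0.1 by order alone. The absence of overlap in a gene, given below, is therefore a description. The precision allowed large differences only: the median 95% interval of the LA-minus-BSA log2 difference reached 0.88 to either side, and 0.56 for the 5827 genes averaging a log2 CPM of 5 or more. For 7072 genes (41.6%) the whole interval lay within a doubling or a halving. In counts simulated from these libraries, the test found 11% of genes changed 2-fold and 51% of genes changed 4-fold. What share of such changes the test would find in the libraries themselves was not tested. For the genes named below, the adjusted p of LA against BSA was 0.9998 throughout by edgeR, and a 95% interval, where given beside a log2 difference, leaves out 0 where the unadjusted p is under 0.05. The difference itself was also tested between the left-out and the kept libraries, and edgeR called 0 genes there, with 233 at an unadjusted p under 0.05 and 5 called by DESeq2. The 4 kept libraries by themselves, with the kept DHA libraries in the fit, also gave 0 calls, with 117 genes at an unadjusted p under 0.05.

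The genes leading the comparison are described with 2 readings of each library, because the deposited gene table is not the plain sum of the deposited transcript table. The transcript estimates, added up over the transcripts of each gene, gave 16616 genes to test, of which edgeR called 0 (0.00% in each direction), with 112 at an unadjusted p under 0.05 (0.674%), 61 higher (0.367%) and 51 lower (0.307%). The 2 tables have the same total over the 9 libraries, but differ gene by gene. Among 1412 genes with a single transcript, the ratio of gene value to transcript value ranged by a median of 1.03-fold over the 6 libraries. Among 9872 genes with several transcripts it ranged by a median of 1.205-fold, and by more than 1.5-fold in 1845 (18.7%). How the gene table was made from the transcripts is not given in the sources used here. Of the 20 leading genes, the 10 smallest p-values in each direction, 8 had an unadjusted p under 0.05 in the transcript sums and 10 had at most 50% of the log2 difference. The LA and BSA libraries did not overlap for 18 of the 20 in the gene table and for 12 in the transcript sums, where all genes gave 3.26% above and 2.52% below. These 20 were chosen by their p in the gene table, so their values there are a description. The transcript sums come from the same libraries and are not independent of that choice. Their counts for the 20 are therefore a description too. Library values below are in the order replicate 1, 2 and 3.

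Pantr1, a long noncoding RNA gene next to the neural transcription factor gene Pou3f3 (GRCm38 chr1:42590782-42694842), was higher in value in LA organoids by both tables. It stood at 5.37, 3.53 and 4.65 CPM in LA libraries, against 1.17, 0.915 and 0.367 CPM in BSA libraries, and the groups did not overlap. The log2 difference was 2.47 (95% interval 0.91 to 4.04, edgeR adjusted p = 0.9998). In the transcript sums it was 2.13 (0.55 to 3.71), with 4.69, 2.74 and 5.34 CPM in LA and 1.03, 1.39 and 0.464 CPM in BSA. These levels rest on few reads: 42 to 56 per LA library and 4 to 15 per BSA library. The log2 difference of Pantr1 was 2.65 in the kept libraries alone, and 2.15 to 2.71 when each of the 9 libraries was left out in turn.

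The organoids that had also received FGF1, from other libraries that took no part in choosing Pantr1, showed a difference of like size. With FGF1 at 200 ng/ml from day 26, Pantr1 stood at 3.15, 4.67 and 4.62 CPM in LA, against 0.629, 0.704 and 0.402 CPM in BSA. The log2 difference there was 2.79 (SE 0.65), which did not pass edgeR’s adjustment over 21124 genes (adjusted p = 1). On the scaling over all 23 libraries, the 6 LA libraries of day 32, with and without FGF1, spanned 3.15 to 5.96 CPM. The 11 DHA and BSA libraries of that day spanned 0.342 to 2.29 CPM. The LA and BSA libraries without FGF1 served to choose Pantr1, so their part in this separation is a description. At day 26 the 6 libraries of the 3 media spanned 0.262 to 1.67 CPM, and the LA-minus-BSA log2 difference for Pantr1 was 0.43 (SE 0.76). The change of that difference between the days did not pass the test (adjusted p = 1).

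Pou3f3, the neighbour of Pantr1 (chr1:42695768-42703176), was looked up after the values of Pantr1 were seen. It stood at 6.23, 5.04 and 7.18 CPM in LA libraries, against 3.04, 2.84 and 1.84 CPM in BSA libraries, again without overlap. The log2 difference of 1.26 had an interval that included 0 (−0.48 to 3.01), and with FGF1 the difference was 1.61. The DHA libraries without FGF1, at 4.70, 0.478 and 8.27 CPM, reached below and above both groups.

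Tnr encodes tenascin-R, a glycoprotein of the extracellular matrix of the nervous system (chr1:159523769-159931729). It stood at 62.3, 73.8 and 95.5 CPM in LA libraries, against 40.9, 50.4 and 53.1 CPM in BSA libraries. The log2 difference was 0.67 (0.17 to 1.17), and 0.63 (0.20 to 1.06) in the transcript sums. The groups did not overlap in either table. Hapln1 and Hecw1 were also higher in LA in value. Hapln1, the link protein that ties proteoglycans to hyaluronan, stood at 7.38, 4.79 and 7.48 CPM in LA and 2.10, 2.84 and 2.30 CPM in BSA, a log2 difference of 1.43 (0.51 to 2.35) that was 0.59 (−0.44 to 1.62) in the transcript sums.

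Bcl11b, a zinc finger transcription factor of neurons and T cells, stood at 7.28, 5.29 and 5.15 CPM in LA libraries, against 3.19, 1.74 and 1.47 CPM in BSA libraries. Its log2 difference was 1.49 (0.35 to 2.62) in the gene table and 1.48 (0.40 to 2.56) in the transcript sums. Cav2, encoding caveolin-2 of plasma membrane caveolae, stood at 10.6, 8.15 and 10.0 CPM in LA libraries, against 5.76, 4.21 and 5.05 CPM in BSA libraries. Its difference was 0.94 (0.13 to 1.74) by gene and 0.85 (0.08 to 1.63) by transcript sum. For both genes the LA libraries lay above all BSA libraries in the gene table. In the kept libraries alone the gene-table differences were 0.71 for Tnr, 1.70 for Bcl11b and 0.97 for Cav2.

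Aim2 and Col6a5 completed the higher leaders with an unadjusted p under 0.05 in both tables, with uneven libraries in each. Aim2, a sensor of cytosolic DNA, stood at 3.83, 2.27 and 12.6 CPM in LA libraries, against 0.935, 1.74 and 1.93 CPM in BSA libraries. Its log2 difference was 2.01 (0.45 to 3.58) by gene and 1.07 (0.03 to 2.12) by transcript sum. Col6a5, a collagen VI chain, stood at 4.31, 4.54 and 1.82 CPM in LA libraries, against 0.312, 0.366 and 1.65 CPM in BSA libraries, so the lowest LA library was close to the highest BSA library. Leaving out each library in turn gave log2 differences of 0.94 to 2.44 for Aim2 and 1.60 to 3.33 for Col6a5. The lowest value of Aim2, 0.94, was that without LA replicate 3.

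Cplane1, a gene of ciliogenesis and planar polarity (chr15:8169106-8271158), had the smallest p of the gene table and no such difference in the transcript table. Its gene values were 268, 218 and 106 CPM in LA libraries, against 105, 59.6 and 50.8 CPM in BSA libraries (log2 difference 1.49, interval 0.82 to 2.16). Its transcript sums were 61.6, 70.1 and 89.1 CPM in LA, against 66.2, 80.1 and 81.6 CPM in BSA (−0.05, −0.46 to 0.37). The full-length transcript Cplane1-201 (10469 bases) carried nearly all of that sum, at 57.3, 67.5 and 81.8 CPM in LA and 62.7, 73.2 and 75.5 CPM in BSA.

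The gene also has an annotated coding fragment, Cplane1-206, of 93 bases (GRCm38 chr15:8223143-8226919, plus strand, GENCODE M21). It is shown because its few reads follow the gene-table values; the capitals are the 78 bases that lie outside the exons of Cplane1-201.
Cplane1-206: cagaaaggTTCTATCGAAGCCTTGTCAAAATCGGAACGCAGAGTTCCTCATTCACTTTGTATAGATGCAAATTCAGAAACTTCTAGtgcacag
This fragment had 5, 5 and 1 estimated reads in LA libraries, against 2, 0 and 0 in BSA libraries. The libraries with the most reads of the fragment were those with the highest gene-table value in each group. Whether it set the gene-table value was not tested.

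Arap2, an Arf GTPase-activating protein, also differed in the gene table and not in the transcript sums. Its gene values were 58.5, 96.6 and 50.7 CPM in LA libraries, against 19.9, 31.1 and 29.2 CPM in BSA libraries (log2 difference 1.38, 0.69 to 2.06), and its transcript sums were 40.6, 30.5 and 36.5 CPM, against 22.9, 37.8 and 36.6 CPM (0.17, −0.51 to 0.86). A retained-intron transcript of 320 bases, Arap2-207, had 9.15, 27.0 and 5.01 estimated reads in LA, against 1.36, 0 and 0.432 in BSA. In LA the library with the most reads of it had the highest gene value, whereas in BSA the library with the most had the lowest.

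On the lower side, Cpne1 and Olfr1221 were the leaders with an unadjusted p under 0.05 in both tables. Cpne1 encodes copine-1, a calcium-dependent phospholipid-binding protein, and stood at 1.25, 4.54 and 2.73 CPM in LA libraries, against 7.01, 7.14 and 8.54 CPM in BSA libraries. Its log2 difference was −1.47 (−2.49 to −0.44) by gene and −2.41 (−4.18 to −0.65) by transcript sum, without overlap in the gene table, and −1.10 by gene in the kept libraries alone. Olfr1221, an olfactory receptor gene, stood at 0.671, 0.672 and 0.910 CPM in LA libraries, against 2.10, 3.38 and 2.75 CPM in BSA libraries, a log2 difference of −1.87 (−3.09 to −0.64) by gene and −1.67 by transcript sum.

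The other lower leaders had smaller differences in the transcript sums. Mid1ip1, whose protein activates acetyl-CoA carboxylase in fatty acid synthesis, stood at 2.97, 5.04 and 4.75 CPM in LA libraries, against 6.85, 11.8 and 30.9 CPM in BSA libraries. Its log2 difference of −1.79 (−2.91 to −0.66) was −0.06 (−1.15 to 1.03) in the transcript sums. Mon2, a gene of endosome-to-Golgi traffic, differed by −0.67 (−1.12 to −0.21) by gene and 0.05 (−0.32 to 0.42) by transcript sum. The transcription factor gene Nfic differed by −0.93 (−1.60 to −0.26) by gene and −0.13 (−0.97 to 0.71) by transcript sum. Orc1, of the origin recognition complex, differed by −2.60 (−4.43 to −0.76) by gene and 0.09 (−1.06 to 1.23) by transcript sum. For Orc1 the groups overlapped even in the gene table, with 2.11, 1.43 and 1.72 CPM in LA and 9.74, 20.6 and 1.84 CPM in BSA.

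**Figure D1:**
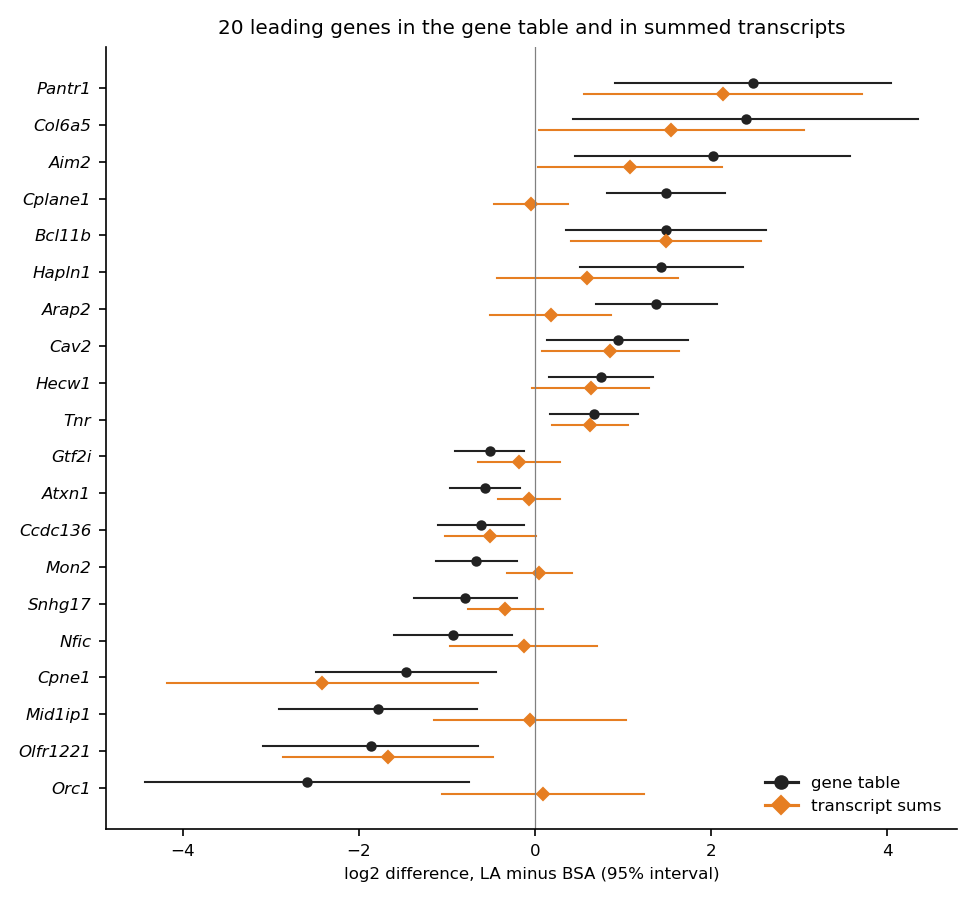
Log2 difference, LA minus BSA, of the 20 leading genes with 95% intervals, by gene table and by transcript sums. Of the 20 genes, 8 have an unadjusted p under 0.05 in the transcript sums, and Cplane1, Arap2, Mid1ip1, Mon2 and Orc1 lie near 0 there.

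None of the 20 leaders had an unadjusted p under 0.05 for LA against BSA at day 26, where the share over all genes was 0.743%, and 1, Pantr1, had it at day 32 with FGF1, where the share was 1.70%. Tnr came nearest at day 26, with a log2 difference of 0.54 (SE 0.30), and had 0.25 with FGF1. In neither of these comparisons did edgeR call a gene among 21124 (0.00% in each direction), with 157 genes at an unadjusted p under 0.05 at day 26 and 360 with FGF1. DESeq2 called 0 and 1, and voom 0 and 3. The difference between the LA-minus-BSA values without FGF1 and those at day 26 or with FGF1 was tested directly, and edgeR called 0 genes in each, with 364 and 589 genes at an unadjusted p under 0.05. DESeq2 called 3 and 6 genes there, and voom 0 and 1.

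None of the listed genes of fatty acid metabolism passed the test. Of 34 tested genes of fatty acid oxidation and PPAR targets, none was called, and 14 were higher in LA in value, with a median log2 difference of −0.05, against −0.01 over all genes tested. Cpt1a, the rate-limiting enzyme of mitochondrial fatty acid import, stood at 89.9, 107 and 101 CPM in LA libraries, against 97.4, 104 and 131 CPM in BSA libraries (−0.16, −0.64 to 0.33). Angptl4, a lipase inhibitor and PPAR target, was too low to be tested, with 3, 1 and 2 reads in LA and 7, 16 and 3 in BSA. Ppara, a receptor for fatty acids, stood at 7.86, 22.0 and 6.57 CPM in LA libraries, against 4.91, 5.86 and 6.34 CPM in BSA libraries, a log2 difference of 1.03 (−0.02 to 2.08) that was 0.08 in the transcript sums.

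No enzyme that converts linoleic acid passed the test. The 20 tested desaturases, elongases and their partners had a median log2 difference of 0.05, with 15 higher in LA in value and none called. Elovl2, an elongase of long polyunsaturated acids, stood at 235, 219 and 221 CPM in LA libraries, against 211, 214 and 215 CPM in BSA libraries. The groups did not overlap, but the difference of 0.08 (−0.32 to 0.47) was small beside its interval. Fads1, the desaturase that makes arachidonic acid, stood at 175, 212 and 185 CPM in LA libraries, against 214, 226 and 197 CPM in BSA libraries (−0.15, −0.56 to 0.25), and these overlapped. Elovl5, the elongase between the desaturation steps, stood at 129, 71.9 and 97.5 CPM in LA libraries, against 94.3, 78.8 and 82.3 CPM in BSA libraries (0.21, −0.40 to 0.81). Fads2, the first enzyme of the path, varied more within each medium than the others named here and had a wide interval (−0.53, −2.34 to 1.29). Scd1, which desaturates saturated acids, stood at 99.3, 79.8 and 82.5 CPM in LA, against 91.9, 83.8 and 82.1 CPM in BSA (0.02, −0.38 to 0.41), so a 2-fold difference lies outside its interval.

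For cholesterol synthesis, the 27 tested genes had a median of −0.12 and 12 were higher in LA in value. Hmgcs1, an early enzyme of that pathway, stood at 389, 352 and 374 CPM in LA libraries, against 361, 329 and 284 CPM in BSA libraries (0.20, −0.31 to 0.70). The 36 genes of fatty acid uptake and storage had a median of −0.01, the 21 eicosanoid and oxylipin genes −0.05, and the 31 antioxidant genes −0.08. None of these genes was called. Fabp4, a fatty acid binding protein and PPARγ target, stood at 4.12, 14.5 and 4.95 CPM in LA libraries, against 1.09, 4.76 and 5.88 CPM in BSA libraries. Its groups overlapped, and its log2 difference was 1.203 (0.05 to 2.35) by gene and 0.91 (−0.26 to 2.09) by transcript sum. Mfsd2a, a transporter of lipids that carry DHA, stood at 0.575, 0.336 and 0.303 CPM in LA, against 2.73, 0.457 and 1.65 CPM in BSA (−1.94, −4.12 to 0.25), and the groups overlapped. Over all 33 lists, 595 distinct genes were tested and 5 (0.840%) had an unadjusted p under 0.05, against 1.01% of all genes. These were Cplane1, Aim2, Fabp4, Fosb and Cacna1f.

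Several genes of fatty acid synthesis and desaturation were spread widely within each medium. Fasn, the fatty acid synthase, stood at 13.7, 48.1 and 12.7 CPM in LA libraries and at 9.81, 93.6 and 13.8 CPM in DHA libraries, against 60.1, 17.9 and 31.2 CPM in BSA libraries. Srebf1, encoding SREBP1, stood at 9.11, 32.6 and 6.27 CPM in LA, against 37.3, 11.7 and 22.3 CPM in BSA. Fads2, the first desaturase on the path from linoleic acid, stood at 24.8, 78.3 and 17.9 CPM in LA, against 83.4, 36.3 and 42.9 CPM in BSA. In all 3 genes LA replicate 2 and BSA replicate 1 were the high libraries of their groups, and the groups overlapped.

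The same libraries differed in how counts followed the GC content of genes. Across genes, log2 CPM changed with each 10 percentage points of GC by a slope of −1.07, −0.376 and −1.21 in LA libraries, −1.19, −0.0399 and −1.27 in DHA libraries, and −0.20, −0.858 and −0.666 in BSA libraries. The share of reads from the mitochondrial genome was 12.5, 7.11 and 11.4% in LA, 9.38, 5.55 and 10.6% in DHA, and 8.25, 8.55 and 7.20% in BSA. The libraries of shallow slope, LA replicate 2, DHA replicate 2 and BSA replicate 1, had the highest Fasn of their media. With the slope as a covariate, the log2 difference of Fasn, −0.74 (−2.83 to 1.35) without it, was 0.07, and that of Srebf1, −0.74 (−3.09 to 1.61) without it, was 0.07. The 15 tested synthesis genes had a median of −0.22, and 0.05 with the covariate. The slope was computed from the same counts and taken as a covariate after the values were seen. Values with the slope in the fit, here and below, are therefore a description, and they are given for some lists only. With the slope in the edgeR fit, 520 of 17006 genes had an unadjusted p under 0.05, among them all 20 leaders. The leaders were chosen from the same libraries. The part of RNA quality or library preparation in these values was not tested.

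**Figure D2:**
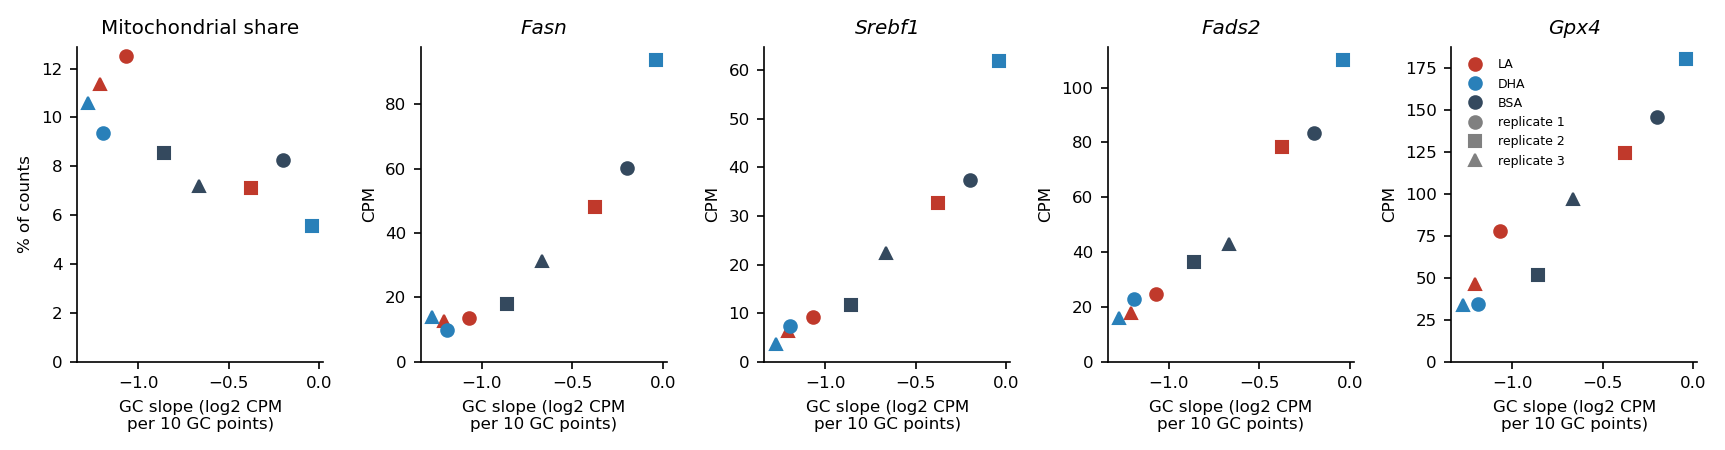
Mitochondrial share (%) and CPM of Fasn, Srebf1, Fads2 and Gpx4 against the GC slope of each of the 9 day-32 libraries without FGF1. LA replicate 2, DHA replicate 2 and BSA replicate 1 lie at the shallow end, where Fasn reaches 48.1, 93.6 and 60.1 CPM.

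The glycolysis and hypoxia genes differed between the same libraries. Of its 25 tested genes 4 were higher in LA in value, with a median log2 difference of −0.18, or 0.02 with the GC slope in the fit. Gapdh stood at 677, 1260.1 and 331 CPM in LA libraries, against 1885, 545 and 925 CPM in BSA libraries, and Slc2a1, a glucose transporter, at 151, 287 and 98.4 CPM in LA, against 410, 119 and 191 CPM in BSA. All 15 mitochondrially encoded transcripts were higher in LA in value (median 0.51), and the median was 0.18 with the slope in the fit. Their groups overlapped.

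Photoreceptor identity was present in both groups and did not pass the test between them. Nrl, the rod-determining factor that drives the reporter, stood at 632, 853 and 793 CPM in LA libraries, against 785, 825 and 823 CPM in BSA libraries (−0.11, −0.61 to 0.39). Crx, the factor shared by rods and cones, stood at 1227, 1161 and 1245 CPM in LA, against 1258, 1286 and 1282 CPM in BSA, below in every library by a log2 difference of −0.08 (−0.52 to 0.37). In these dissected tissues fewer cells of a type and less RNA per cell cannot be told apart.

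Of 20 rod genes 5 were higher in LA in value and the median log2 difference was −0.17, or −0.01 with the GC slope in the fit. Cone genes had a median of 0.10, with 9 of 15 higher in LA in value, among them the cone pigment Opn1sw (0.43, −0.92 to 1.78) and cone arrestin Arr3 (0.49, −0.62 to 1.60), whose groups overlapped. Among genes of rods and cones together, Cacna1f, a calcium channel subunit of photoreceptor synapses, stood at 33.2, 41.3 and 40.8 CPM in LA libraries, against 36.0, 59.7 and 87.3 CPM in BSA libraries. Its groups overlapped, and its log2 difference was −0.59 (−1.16 to −0.03) by gene and −0.58 (−1.39 to 0.22) by transcript sum. Unlike Opn1sw and Arr3, the cone channel gene Cnga3 was lower in LA in value, with every LA library below every BSA library. Its log2 difference was −0.91 (−2.05 to 0.23). Bipolar genes had a median of −0.02, Müller glia and astrocyte genes 0.05, and cell cycle genes −0.03, all near the −0.01 of all genes.

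Horizontal cell genes were higher in LA in value in 9 of 10 cases, with a median of 0.37. Prox1, a homeobox gene of horizontal cells and other retinal neurons, stood at 142, 142 and 162 CPM in LA libraries, against 122, 115 and 123 CPM in BSA libraries (0.31, −0.08 to 0.69). Tfap2b, which is also in the list of amacrine cells, stood at 372, 332 and 516 CPM in LA, against 348, 290 and 294 CPM in BSA, which overlapped. The median of the horizontal cell genes was 0.39 in the transcript sums, and 0.18 with the GC slope in the fit. Other inner retinal neurons also had medians above 0 in the transcript sums. Amacrine cell genes had 0.21, with 11 of 17 higher in LA in value, and retinal ganglion cell genes 0.17, with 11 of 16. None of the horizontal cell genes had an unadjusted p under 0.05.

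**Figure D3:**
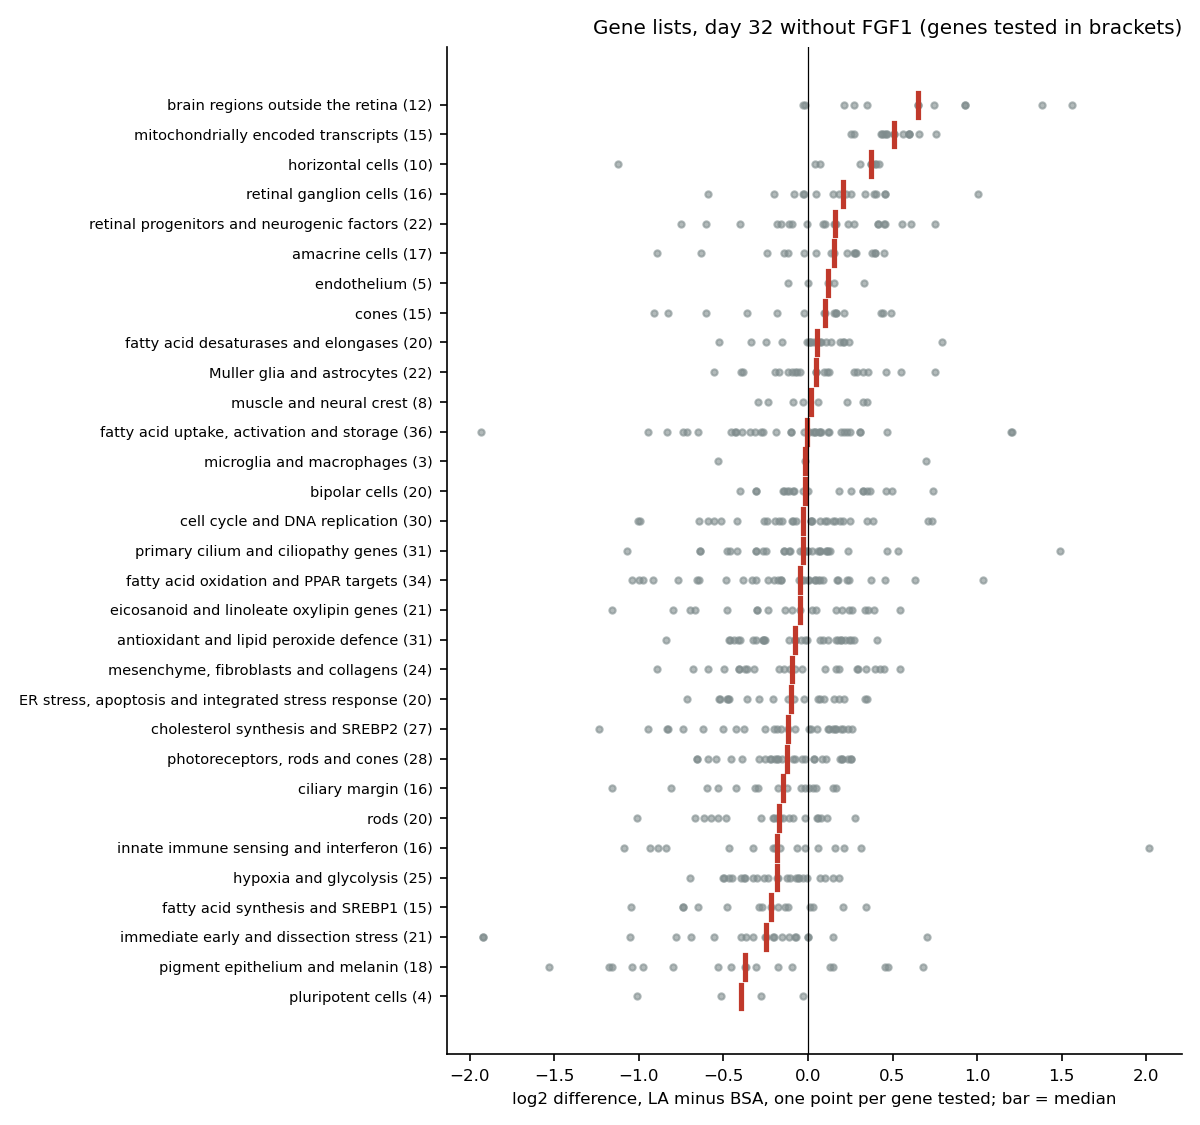
Log2 difference, LA minus BSA, of each tested gene (points) in 31 gene lists, with the list median as a bar. The highest medians are 0.65 for genes of brain regions outside the retina, 0.51 for mitochondrially encoded transcripts and 0.37 for horizontal cells; no gene of any list was called.

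Markers of cells outside the neural retina differed in level by cell type. Summed over each list, microglia and macrophage genes stood at 6.90 to 8.23 CPM in LA and 8.08 to 10.5 CPM in BSA, and lens genes at 4.85 to 11.7 CPM in LA and 7.14 to 16.6 CPM in BSA. Mesenchyme and collagen genes stood at 311 to 662 CPM in LA and 458 to 628 CPM in BSA, near the 566 to 705 CPM in LA and 630.0 to 824 CPM in BSA of the cone genes. Endothelial genes stood at 227 to 316 CPM in LA and 253 to 314 CPM in BSA. Nearly all of that sum was Kdr, at 305.5, 268.2 and 212.6 CPM in LA and 303.6, 243.8 and 239.5 CPM in BSA. Flt1 came next, at 5.18, 8.57 and 10.6 CPM in LA. Cdh5 was at 0 in every LA library and at 0.0779, 0 and 0.0918 CPM in BSA. The sum is therefore no measure of endothelial cells. No gene of these lists was called. The list of brain regions outside the retina had 12 tested genes, 10 of them higher in LA in value, with a median of 0.65 by gene and 0.66 by transcript sum. Olig1, an oligodendrocyte lineage factor, was the only tested gene of the list without overlap, at 1.15, 1.09 and 0.910 CPM in LA libraries, against 0.312, 0.549 and 0.184 CPM in BSA libraries (1.56, −0.12 to 3.24). Emx1 was at 0 in every LA library, and at 0.0779, 0 and 0 CPM in BSA libraries. The summed level of the list was 48.8 to 74.8 CPM in LA and 45.6 to 54.4 CPM in BSA, and the part of such cells in the values of Pantr1, Pou3f3 and Bcl11b, all expressed in brain, was not tested.

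Pigment epithelium and melanin genes had a median of −0.37, with 5 of 18 tested genes higher in LA in value, and a summed level of 172 to 442 CPM in LA and 218 to 482 CPM in BSA. The largest member of that sum in every library was Rlbp1, which is also in the list of Müller glia. It stood at 193.8, 177.8 and 83.4 CPM in LA and 267.7, 130 and 100.7 CPM in BSA. The sum is therefore no measure of pigment epithelium alone. Tyr, the enzyme that begins melanin synthesis, stood at 22.6, 2.35 and 2.22 CPM in LA libraries, against 10.7, 17.7 and 8.91 CPM in BSA libraries, and the groups overlapped through LA replicate 1. Rpe65, a defining gene of mature pigment epithelium, was at 0 in all 6 libraries. Immediate early and dissection stress genes had a median of −0.25 and 4 of 21 were higher in LA in value. Fosb, a neuronal activity gene of the AP-1 family, stood at 1.34, 2.94 and 1.72 CPM in LA libraries, against 2.18, 3.93 and 6.89 CPM in BSA libraries. Its groups overlapped, and its log2 difference was −1.05 by gene (−2.05 to −0.05) and by transcript sum (−2.004 to −0.09).

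DHA at the same dose, tested over the same 17006 genes, gave the same count of calls. For DHA against BSA, which shares the BSA libraries, edgeR called 0 genes (0.00% in each direction), with 217 (1.28%) at an unadjusted p under 0.05, and DESeq2 called 1. For DHA against LA, which shares the LA libraries, edgeR called 0 genes (0.00%), with 265 (1.56%) at an unadjusted p under 0.05, and DESeq2 called 3. Pantr1 stood at 1.23, 0.318 and 2.09 CPM in DHA libraries, all below the lowest LA library and overlapping the BSA libraries. Some of the other higher leaders, Hapln1, Cav2 and Hecw1 among them, were also higher in DHA than in BSA in value. The BSA libraries helped to choose the leaders, so a positive DHA-minus-BSA value is partly set by that choice. The DHA-minus-BSA log2 difference was 0.93 for Hapln1, 0.86 for Cav2 and 0.63 for Hecw1, against 1.43, 0.94 and 0.75 for LA minus BSA. It was 0.67 for Col6a5, 0.36 for Bcl11b and 0.35 for Tnr, and 0.01, −0.28 and −0.12 for Cplane1, Arap2 and Aim2.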

How the data were processed

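Expected counts per gene and per transcript were deposited by the authors, with annotation columns. Trimmomatic 0.36, kallisto 0.45.0, edgeR and GRCm38.p6 are named in the submitters' processing notes, without roles. The signal in a deposited normalized table of 18 libraries (normalized CPM by the authors) served only to tell kept libraries from the 5 left out.

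Gene counts were rounded and tested with edgeR 4.0.16 in R 4.3.3 (quasi-likelihood, TMM, filterByExpr, Benjamini-Hochberg, threshold 0.05) over the 9 day-32 libraries without FGF1, with 1 mean per medium and a left-out term. Day 26, FGF1 and their differences came from a fit of all 23 libraries. CPM values use TMM-scaled totals; log2 differences use a prior count of 0.125. The genes printed were drawn from the 10 smallest p-values per direction at a log2 CPM of 1 or more, leaving out predicted genes, the 2 smallest in each of 33 lists, and fixed lipid and photoreceptor genes; Pou3f3, Tfap2b, Gapdh, Slc2a1, Emx1, Tyr, Rpe65, Eif2s3y and Rps3a2 were added after their values were seen. Members and lists were chosen with earlier results of these data known. With 3 libraries against 3, an exact permutation test cannot go below 0.1, so none was run.

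Alternatives were RLE scaling, 2 other filters, DESeq2 1.42.0, voom with quality weights (limma 3.58.1), no left-out term, a replicate block, other sets of libraries, a prior count of 2 and each library left out. The GC slope as covariate, a GC offset and transcript sums were chosen after seeing the data. Of 136550 transcripts, 134456 matched GENCODE M21. The scripts were tested on simulated counts.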

Additional observations from a re-analysis of the deposited data

How the results depend on the processing

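The count of 0 genes for LA against BSA held under every alternative run, leave-one-out included (0 to 0), except without a filter on low counts, which gave 26, 13 in each direction. Without that filter the other counts were 145 for left-out against kept libraries (46 as reported), 31 for DHA against BSA, 28 for DHA against LA, 31 at day 26, 113 with FGF1, 46 and 88 for the differences from day 26 and from FGF1, and 91 for the difference between left-out and kept. DESeq2 gave 107 for left-out against kept, 1, 3 and 1 for DHA against BSA, DHA against LA and LA with FGF1, 3 and 6 for the differences from day 26 and FGF1, and 5 for left-out against kept differences. voom gave 183 for left-out against kept, 3 with FGF1 and 1 for the difference from FGF1. With the GC slope the counts were 226 for left-out against kept and 1 for each DHA comparison. Leaving out a library gave 17 to 58 for left-out against kept, the lowest without LA replicate 1 or DHA replicate 1. The causes were not tested. Of 2542 recomputed values of named genes, 2463 kept their direction and side of the threshold, 76 moved and 3 (Cplane1, Arap2 and Orc1, without a filter) passed it. At 10405663 to 11888224 reads per library, genes of a few CPM rest on few reads (4 to 56 for Pantr1).

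With a replicate block, LA against BSA gave 0 genes, with 308 at an unadjusted p under 0.05. Deviations of same-numbered LA and BSA libraries correlated at 0.086, −0.289 and 0.278, so the numbers were not taken to pair the libraries.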
